A study of Homo sapiens with 12 samples.

Results

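The 10 genes described here are those in common use as markers of breast cancer stemness, namely CD44, CD24, ALDH1A1, ALDH1A3, SOX4, SOX9, KLF4, KLF5, PROCR and PROM1. They were taken by name, not by a threshold on their values, and were found by that name in both deposited tables, which hold 60558 gene identifiers in common. RNA-seq had been performed in MDA-MB-231, an established human triple-negative breast cancer (TNBC) cell line, to find transcriptional targets of NONO and PKM2. NONO is a paraspeckle protein that binds RNA and DNA, and PKM2 is the isoform of pyruvate kinase that predominates in tumors. Cells labelled as NONO knockdown or PKM2 knockdown were each compared with their own negative control (NC), labelled as wild type (WT), with 3 libraries in each of the 4 groups and 12 libraries in all. The series states that siRNA was used for knockdown, but not which siRNA each library received. The NC cells were therefore cells of the same line without knockdown, and no library was shared between the 2 experiments. The labels do not say that the 3 libraries of a group came from separate cultures, so the P values measure the spread between these libraries, which may be technical.

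Breast cancer stem cells are the tumor cells with the capacity to seed a new tumor, and in many breast tumors they were first enriched by sorting cells with high surface CD44 and little or no surface CD24. Another approach uses the activity of aldehyde dehydrogenases, to which ALDH1A1 and ALDH1A3 contribute by oxidizing retinal to retinoic acid. SOX4, SOX9, KLF4 and KLF5 are transcription factors with roles in progenitor cells, PROCR (the endothelial protein C receptor) marks a population of mammary stem cells, and PROM1 encodes the surface glycoprotein CD133. All of these are properties of single cells or of surface protein, whereas the measurements here are RNA levels of whole cultures, in which fewer cells of a type and less RNA per cell cannot be told apart.

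The genes were located on GRCh38 by GENCODE 29, an annotation used here for location only. CD44 spans chr11:35138870-35232402 on the plus strand, CD24 spans chr6:106969831-106975627 on the minus strand, and PROCR spans chr20:35172073-35216240 on the plus strand. ALDH1A3 spans chr15:100877714-100916626 on the plus strand, ALDH1A1 spans chr9:72900662-73080442 on the minus strand, and PROM1 spans chr4:15963076-16084378 on the minus strand. SOX4 spans chr6:21592768-21598619 and SOX9 spans chr17:72121020-72126420, both on the plus strand. KLF4 spans chr9:107484852-107490482 on the minus strand, and KLF5 spans chr13:73054976-73077542 on the plus strand. Antisense genes share exon bases with CD44 (84 bases), ALDH1A3 (1585 bases), SOX4 (168 bases) and PROCR (218 bases). Since the handling of strand is not given in the sources used here, reads of such pairs could not be told apart.

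The promoters of the members whose RNA levels changed after PKM2 knockdown are shown so that the genes that fell can be compared with KLF4, the only one of the set that rose. RefSeq promoter sequences on GRCh38.p14 (250 bases before to 50 bases after a start) were found for 9 of the 10 genes, with SOX9 the exception, and the most upstream start was taken where several were listed. The sequences are those of KLF4 (chr9:107489720-107490019, minus strand), KLF5 (chr13:73054726-73055025, plus strand), CD24 (chr6:106975578-106975877, minus strand), PROCR (chr20:35171822-35172121, plus strand) and ALDH1A3 (chr15:100879581-100879880, plus strand), each written 5′ to 3′ on the strand of its gene. Capitals mark the GC box GGGCGG and the CACCC box, both of which are recognized by factors of the Sp and KLF family, on either strand.
KLF4: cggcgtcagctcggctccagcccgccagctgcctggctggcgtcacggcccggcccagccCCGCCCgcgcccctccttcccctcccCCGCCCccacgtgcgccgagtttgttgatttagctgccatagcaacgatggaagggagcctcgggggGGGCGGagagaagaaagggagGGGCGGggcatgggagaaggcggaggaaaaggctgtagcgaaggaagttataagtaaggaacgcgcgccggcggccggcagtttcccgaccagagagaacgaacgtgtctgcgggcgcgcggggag
KLF5: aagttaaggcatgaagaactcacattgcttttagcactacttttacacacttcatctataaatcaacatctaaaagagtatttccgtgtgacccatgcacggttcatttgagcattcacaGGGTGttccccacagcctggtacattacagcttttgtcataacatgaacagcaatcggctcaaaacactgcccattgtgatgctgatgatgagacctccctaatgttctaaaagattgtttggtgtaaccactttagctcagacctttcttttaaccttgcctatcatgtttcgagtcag
CD24: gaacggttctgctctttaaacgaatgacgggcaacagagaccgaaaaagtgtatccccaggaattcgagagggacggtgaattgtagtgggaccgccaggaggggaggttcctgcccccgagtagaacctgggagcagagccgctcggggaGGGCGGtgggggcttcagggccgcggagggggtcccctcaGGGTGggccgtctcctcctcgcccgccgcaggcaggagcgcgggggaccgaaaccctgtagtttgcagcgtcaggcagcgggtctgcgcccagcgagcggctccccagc
PROCR: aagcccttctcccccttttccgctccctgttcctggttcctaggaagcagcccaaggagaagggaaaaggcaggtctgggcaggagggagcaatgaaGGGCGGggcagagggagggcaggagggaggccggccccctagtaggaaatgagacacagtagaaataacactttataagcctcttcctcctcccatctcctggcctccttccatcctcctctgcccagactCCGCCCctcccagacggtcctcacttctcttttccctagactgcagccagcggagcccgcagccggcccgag
ALDH1A3: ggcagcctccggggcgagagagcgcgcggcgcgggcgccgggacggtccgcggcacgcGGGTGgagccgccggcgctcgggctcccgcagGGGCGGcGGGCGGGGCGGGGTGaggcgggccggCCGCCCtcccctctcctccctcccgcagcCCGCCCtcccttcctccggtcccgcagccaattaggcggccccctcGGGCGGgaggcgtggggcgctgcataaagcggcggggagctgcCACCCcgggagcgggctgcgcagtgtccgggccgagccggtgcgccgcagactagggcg
The GGGCGG box occurred 4 times in the KLF4 promoter, 6 times in that of ALDH1A3, 2 times in that of PROCR, 1 time in that of CD24 and 0 times in that of KLF5. Other starts in the table differed in these counts, since the second KLF5 start (chr13:73058755-73059054) held 2 GGGCGG, 2 CACCC and 2 CCAAT boxes and neither TATAAA nor AACAAT. The second CD24 start (chr6:106975416-106975715) held 0 GGGCGG boxes and 1 CACCC box, and the third (chr6:106973990-106974289) held 1 GGGCGG, 2 CACCC and 1 CCAAT box. The CACCC box was found 3 times in the ALDH1A3 promoter, 1 time each in those of CD24 and KLF5, and 0 times in those of KLF4 and PROCR. In the ALDH1A3 promoter, 1 CACCC box overlapped a GGGCGG box, and some of the GGGCGG boxes counted overlapped each other. Of 35116 promoters of this length, 45% held GGGCGG and 59.9% held CACCC on either strand. The TATA box sequence TATAAA, counted at any position on either strand, was present in 11.5% of promoters and in those of PROCR and KLF5. Its distance from the start was not considered. AACAAT, a sequence bound by SOX factors and present in 10.1%, was found only in that of KLF5 among the 5 shown. The CCAAT box, present in 34.6%, was found only in that of ALDH1A3 among the 5 shown. These matches describe the sequences, and no binding was measured here.

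The depth of the libraries was 19861762 to 20981712 estimated counts in the NONO experiment and 24097948 to 28455268 in the PKM2 experiment. The targeted genes fell in every knockdown library. NONO fell from 373 ± 16.7 to 62.7 ± 1.40 CPM (counts scaled to library size by TMM; mean ± SD, n = 3) in the NONO experiment, and PKM, whose counts do not separate PKM1 from PKM2, fell from 2270 ± 56.8 to 227 ± 8.30 CPM in the PKM2 experiment. Of the markers that define triple-negative cells, ESR1 and PGR lay at or below a mean of 0.157 TPM (a level scaled for transcript length) in all 4 groups, and CDH1 had at most 2 counts in any library, whereas the mesenchymal marker VIM lay at means of 3383 to 4413 TPM. ERBB2 RNA was detected, at 26.7 ± 0.338 TPM in the NC libraries of the PKM2 experiment. In the NONO experiment the first NC library, and in the PKM2 experiment the third knockdown library, stood apart from their replicates. Fold changes of the markers that rest on them are given with and without them, whereas those of related genes are given with all libraries only.

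In the NC cells, the levels of the markers spanned a wide range on the per-length scale. CD44 had the highest level, with 299.9 ± 27.0 TPM in the NC libraries of the NONO experiment and 299.7 ± 11.3 TPM in those of the PKM2 experiment. PROCR followed, with 56.0 ± 0.664 and 59.2 ± 0.499 TPM. KLF4 (19.8 ± 3.91 and 16.7 ± 3.60 TPM) and SOX9 (17.8 ± 1.60 and 16.4 ± 0.945 TPM) came next, and their ranges over libraries overlapped in both NC groups. KLF5 (9.75 ± 0.625 and 9.38 ± 0.339 TPM), ALDH1A3 (8.93 ± 0.335 and 7.50 ± 0.821 TPM) and SOX4 (7.62 ± 1.45 and 5.94 ± 0.314 TPM) formed a lower group. In the NC libraries of the NONO experiment, the range of ALDH1A3 overlapped those of KLF5 and SOX4, which were separate from each other. In those of the PKM2 experiment, none of these ranges overlapped. CD24 was the lowest of the 8 markers that could be tested, with 1.28 ± 0.0794 and 1.41 ± 0.260 TPM. On this scale, CD44 RNA lay far above CD24 RNA before any knockdown. The order stayed the same after NONO knockdown, except that ALDH1A3 (9.03 ± 0.610 TPM), SOX4 (8.72 ± 0.881 TPM) and KLF5 (8.54 ± 0.360 TPM), which overlapped, changed places among themselves. After PKM2 knockdown, KLF4 stood above PROCR, and KLF5 (5.81 ± 1.25 TPM), SOX4 (5.12 ± 0.284 TPM) and ALDH1A3 (3.95 ± 1.22 TPM) overlapped, while CD24 (0.257 ± 0.0289 TPM) remained the lowest of the 8.

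The other 2 markers were not detected above background. ALDH1A1 had 0 counts in all 12 libraries, and PROM1 had 1 count in the first NONO knockdown library, 1 count in the third NC library of the PKM2 experiment and 0 counts in the other libraries. A count of 0 allows up to 3 counts, which corresponds to 0.102 to 0.153 CPM at these depths, and counting error alone is covered by this limit. Neither gene passed the filter on low counts, and no fold change is given for them. Of ALDH1A1 and ALDH1A3, only ALDH1A3 RNA was thus detected in these cells. Other aldehyde dehydrogenases were expressed too, with ALDH2 at 78.2 ± 5.06 TPM in the NC libraries of the NONO experiment.

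**Figure D1:**
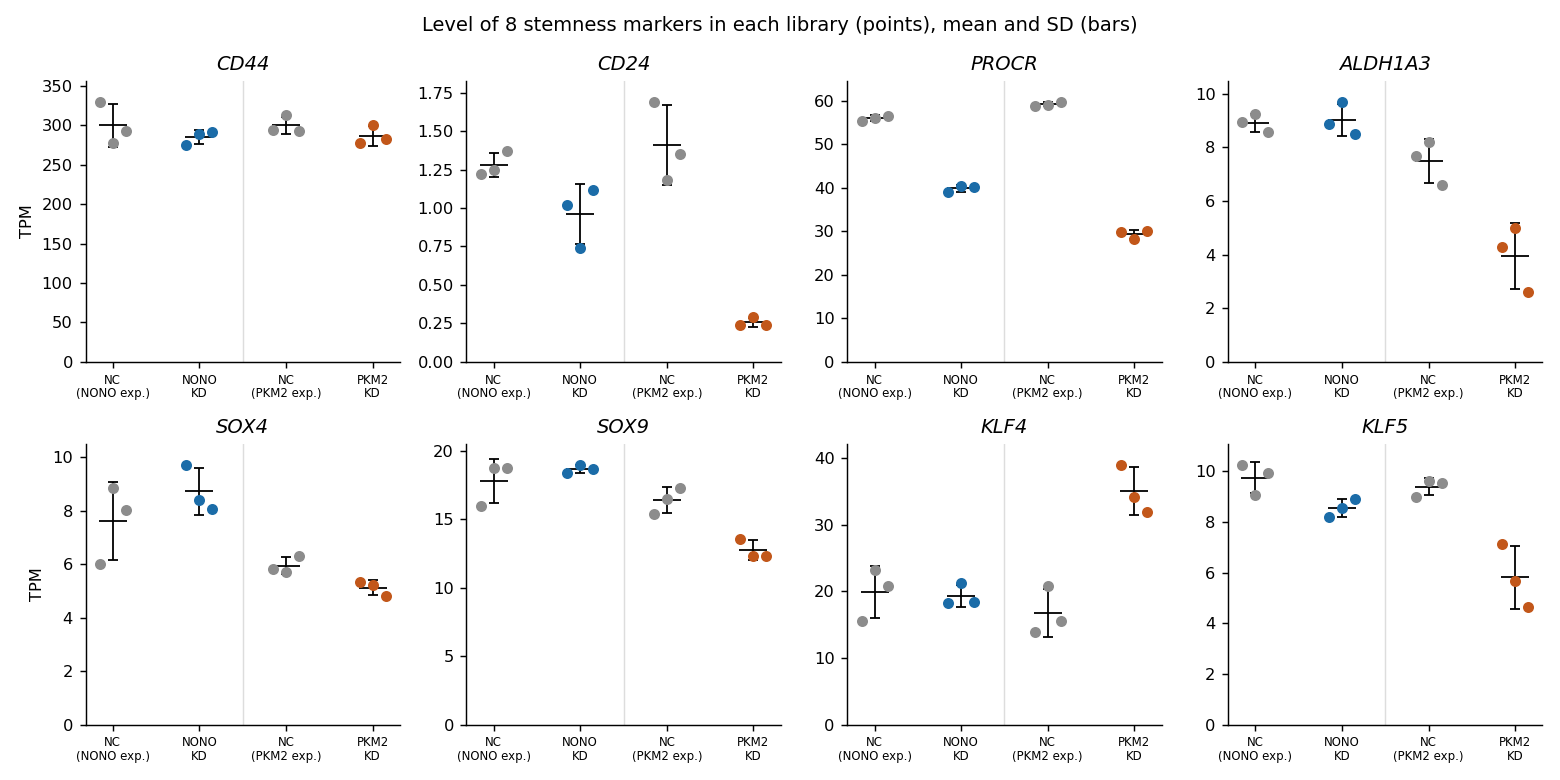
Level in TPM (y axis, linear from 0) of the 8 markers that passed the filter, in each of the 12 libraries (points) with the mean and SD of each group of 3 (horizontal line and bars), grey for NC and coloured for knockdown (KD). PROCR is lower in both knockdowns, CD24, ALDH1A3 and KLF5 are lower and KLF4 is higher after PKM2 knockdown, and CD44 stays between 275.5 and 329.6 TPM throughout.

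A single marker fell after NONO knockdown, and markers moved in both directions after PKM2 knockdown. Of the 8 markers tested, 1 (PROCR) fell and 0 rose after NONO knockdown at an adjusted P below 0.05 (the quasi-likelihood test of edgeR, adjusted over all genes by Benjamini-Hochberg), where 17.2% of all genes tested fell and 16.2% rose. After PKM2 knockdown, 5 fell (CD24, which entered the test only through its NC group, ALDH1A3, SOX9, KLF5 and PROCR) and 1 rose (KLF4), where 34.7% of all genes tested fell and 33.6% rose. The share of genes that moved was thus large in that experiment, and 6 of 8 markers is to be read against it. The median log2 fold change of the 8 markers was 0.02 after NONO knockdown and −0.45 after PKM2 knockdown, against −0.01 over all genes in both experiments. The median size of the change, without sign, was 0.17 and 0.79, against 0.19 and 0.47 over all genes. In the test of the difference between the knockdowns, 5 markers were lower (CD24, ALDH1A3, SOX9, KLF5 and PROCR) and 1 was higher (KLF4) in the PKM2 effect than in the NONO effect, where 27.4% of all genes tested were lower and 25.7% higher.

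By the cutoffs in the study's methods, a fold change above 2 and a P value below 0.05, 0 of 8 markers passed after NONO knockdown. The cutoffs were applied here to the edgeR test, by which 2.16% of all genes were lower and 0.789% higher. These shares are not those of the study's own calls. DESeq2 and limma likewise found 0, and only PROCR had an unadjusted P below 0.05 in the edgeR test. After PKM2 knockdown, CD24 (1 lower, 13.8% of all genes) and KLF4 (1 higher, 7.05% of all genes) passed these cutoffs, CD24 with the limit of its low counts. ALDH1A3 and PROCR lay just inside the fold of 2, with a 1.96-fold and a 1.89-fold lower level. The CPM values of 5 markers did not overlap between NC and NONO knockdown libraries, where this held for 46.1% of all genes, and those of 6 did not overlap in the PKM2 experiment, where this held for 71.9%. With limma on TPM values, 1734 genes fell and 911 rose after NONO knockdown, in place of 2558 and 2396 by edgeR, and PROCR was the 1 marker called by both.

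**Figure D2:**
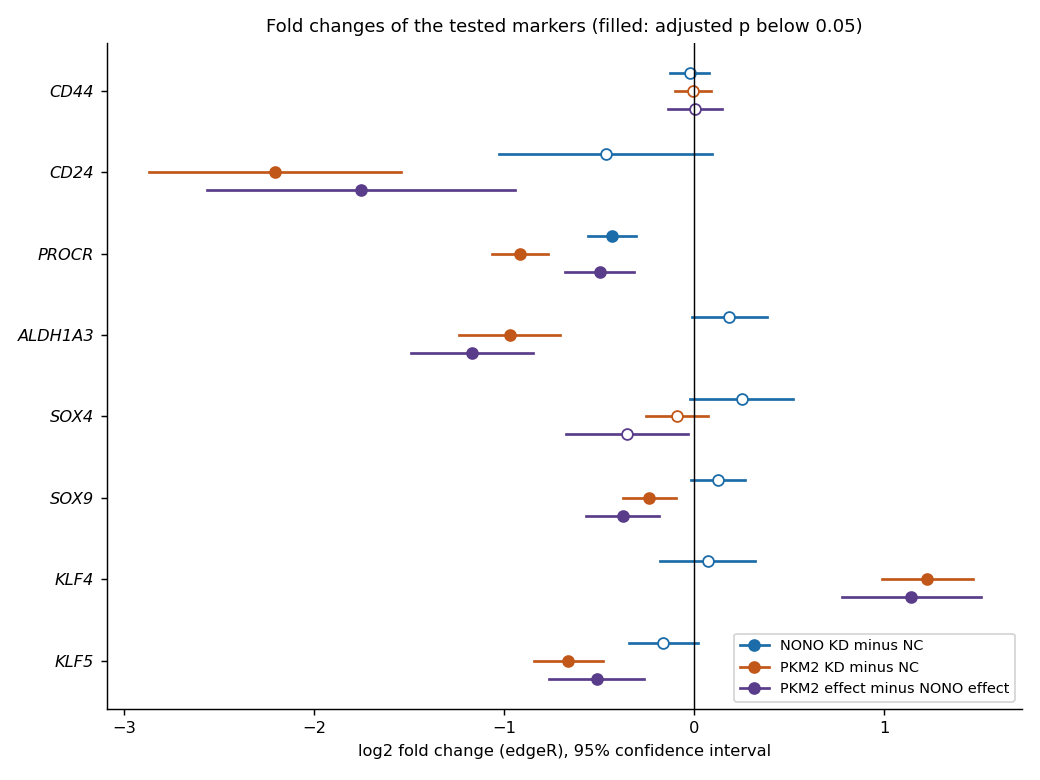
Log2 fold change (x axis) of each tested marker after NONO knockdown, after PKM2 knockdown, and the difference between both effects, with 95% confidence intervals from edgeR (3 libraries per group) and filled points for an adjusted P below 0.05. PROCR is the 1 marker with a filled point for NONO knockdown (−0.43), while the filled points for PKM2 knockdown run from −2.21 for CD24 to 1.23 for KLF4. CD24 had only 9 to 10.25 counts per PKM2 knockdown library and entered that test only through its NC group.

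CD44, the hyaluronan receptor, did not pass the test after either knockdown. Its level was 329.6, 276.9 and 293.3 TPM in the NC libraries and 275.5, 288.7 and 290.9 TPM in the NONO knockdown libraries. In the PKM2 experiment, it was 294.3, 312.7 and 292.1 TPM in the NC libraries and 276.9, 300.7 and 282.4 TPM after knockdown. The groups overlapped in both experiments. The log2 fold change was −0.02 (95% confidence interval −0.13 to 0.08; edgeR adjusted P = 0.760) after NONO knockdown and −0.00 (−0.10 to 0.09; edgeR adjusted P = 0.938) after PKM2 knockdown. The counts behind these values, at least 7204 per library, make both intervals narrow. CD44-AS1, the antisense neighbour, had at most 9.82 counts in any library.

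CD24, a small glycosylated surface protein, was lower after PKM2 knockdown. Its level fell from 1.69, 1.18 and 1.35 TPM in the NC libraries to 0.24, 0.29 and 0.24 TPM in the knockdown libraries. Every knockdown library thus lay below every NC library. The counts behind these values were 62.35, 39 and 54.48 in the NC libraries and 9, 9.95 and 10.25 after knockdown, so CD24 passed the filter on low counts only through its NC group. The log2 fold change was −2.21 ± 0.30 (SE; edgeR adjusted P = 4.43e-05), a 4.62-fold lower level. Without the filter it was −2.20 (edgeR adjusted P = 8.45e-09). That fit also lowered the edgeR adjusted P of KLF4 from 1.12e-06 to 3.46e-64 at nearly the same fold change. The smaller P without the filter is therefore no firmer evidence for CD24. On the log2(TPM + 1) scale of limma, where the pseudocount outweighs so low a level, the change was −0.93, and CD24 no longer passed the fold cutoff of 2. After NONO knockdown, the level was 1.02, 0.74 and 1.12 TPM, against 1.22, 1.25 and 1.37 TPM in the NC libraries. These groups did not overlap either, but the log2 fold change of −0.46 (95% confidence interval −1.03 to 0.10) did not pass the test (edgeR adjusted P = 0.192). The difference between the 2 knockdowns was −1.75 ± 0.38 on the log2 scale (edgeR interaction test, adjusted P = 9.30e-04). The CD24 pseudogenes CD24P1, CD24P2 and CD24P4 were listed with 0 counts in all 12 libraries, but the estimated count of CD24 was not whole in 8 of 12 libraries, so reads that match several features may have been split between them.

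**Figure D3:**
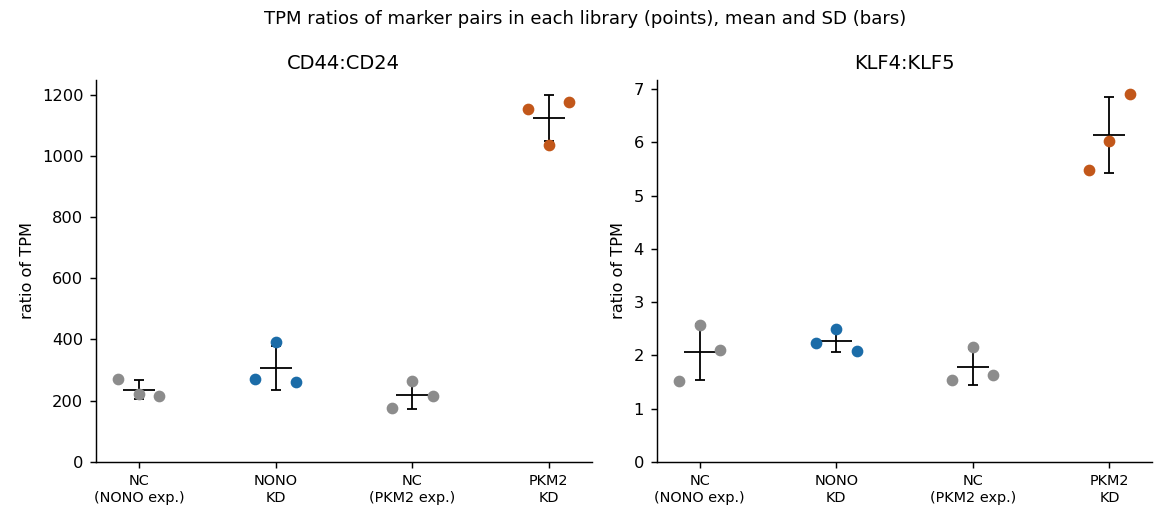
Ratio of TPM values (y axis, linear from 0) of CD44 to CD24 and of KLF4 to KLF5 in each of the 12 libraries (points), with the mean and SD of each group of 3. Both ratios are highest in the 3 libraries of PKM2 knockdown, at 1037 to 1177 for CD44:CD24 and 5.48 to 6.91 for KLF4:KLF5.

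The ratio of CD44 to CD24 on the TPM scale was calculated for each library as a summary of the pair. It was 235 ± 30.5 in the NC libraries and 307 ± 72.5 in the knockdown libraries of the NONO experiment, with ranges of 214.1 to 270.2 and 259.7 to 390.1 that overlapped. In the PKM2 experiment, it was 218 ± 45.5 in the NC libraries, with a range of 174.1 to 265.0, and 1123 ± 75.0 after knockdown, with a range of 1037 to 1177. The higher ratio after PKM2 knockdown followed the denominator, since the CD24 level fell and CD44 did not pass the test. It is given as a description, with no test, and it says nothing of how CD44 and CD24 protein were distributed over cells.

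Genes that make, bind or cleave the ligand and the receptor of the CD44 axis were examined with it. Of 16 listed genes, 12 were tested, of which 2 fell and 4 rose after NONO knockdown (17.2% and 16.2% over all genes) and 3 fell and 4 rose after PKM2 knockdown (34.7% and 33.6% over all genes). After NONO knockdown, HAS2, a hyaluronan synthase, rose from 0.550 ± 0.165 to 2.27 ± 0.232 TPM (log2 fold change 2.09, edgeR adjusted P = 2.81e-05). ADAM10, a protease that sheds CD44 from the surface, fell from 86.9 ± 6.44 to 47.3 ± 0.954 TPM (−0.74, edgeR adjusted P = 1.06e-06). MSN, which links CD44 to the actin cytoskeleton, fell in both experiments, with log2 fold changes of −0.32 after NONO knockdown and −0.44 after PKM2 knockdown. The largest fall in the list after PKM2 knockdown was that of HYAL2, a hyaluronidase of the cell surface, from 16.4 ± 0.524 to 6.17 ± 1.02 TPM (−1.41, edgeR adjusted P = 1.88e-07). The second hyaluronan receptor HMMR rose from 2.96 ± 0.0850 to 3.93 ± 0.750 TPM (0.57, edgeR adjusted P = 0.00163). HYAL3 rose in both experiments, by 0.73 and 0.64.

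PROCR was the 1 marker that fell after both knockdowns. The level was 55.32, 56.10 and 56.64 TPM in the NC libraries and 39.05, 40.40 and 40.25 TPM after NONO knockdown. In the PKM2 experiment, it was 58.85, 59.03 and 59.79 TPM in the NC libraries and 29.86, 28.17 and 30.01 TPM after knockdown. The groups were far apart relative to the spread within them, which was at most 1.02 TPM (SD). The log2 fold change was −0.43 ± 0.06 (edgeR adjusted P = 2.11e-04) after NONO knockdown, 74.1% of the NC level, and −0.92 ± 0.07 (edgeR adjusted P = 1.96e-07) after PKM2 knockdown, 53.0% of the NC level. The fall after PKM2 knockdown was larger, with a difference of −0.50 ± 0.09 on the log2 scale (edgeR interaction test, adjusted P = 1.10e-04). Leaving out the first NC library, the change after NONO knockdown was −0.42, and without the third library of PKM2 knockdown, that after PKM2 knockdown was −0.97. PROCR shares 218 exon bases with the antisense gene AL356652.1, which had at most 2.20 counts in any library.

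PROCR binds protein C and its activated form, and other genes of the protein C and thrombin receptor pathway were examined with it. Of 13 listed genes, 8 were tested, of which 1 fell and 4 rose after NONO knockdown (17.2% and 16.2% over all genes) and 3 fell and 4 rose after PKM2 knockdown (34.7% and 33.6% over all genes). F2RL2, a thrombin receptor also known as PAR3, fell from 4.79 ± 0.464 to 0.997 ± 0.240 TPM after NONO knockdown (log2 fold change −2.21, edgeR adjusted P = 4.90e-06). It fell from 5.42 ± 0.142 to 1.38 ± 0.0603 TPM after PKM2 knockdown (−1.87, edgeR adjusted P = 5.55e-08). TFPI2, a secreted protease inhibitor, rose in both experiments, by log2 fold changes of 1.99 and 1.04. THBD (thrombomodulin), which presents protein C to thrombin, rose by 0.36 after NONO knockdown (edgeR adjusted P = 0.0147) and by 0.30 after PKM2 knockdown (edgeR adjusted P = 5.30e-04). TFPI, the inhibitor of the tissue factor pathway, fell from 42.1 ± 2.54 to 19.0 ± 0.912 TPM after PKM2 knockdown (−1.17). F2R, the main thrombin receptor, rose by 0.37 in the same libraries (edgeR adjusted P = 9.94e-05).

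ALDH1A3, which oxidizes retinal to retinoic acid, fell only after PKM2 knockdown, and the 2 effects differed in the test of their difference. The level was 7.68, 8.21 and 6.60 TPM in the NC libraries and 4.27, 4.98 and 2.60 TPM after PKM2 knockdown. All knockdown libraries lay below all NC libraries, and the third knockdown library was the lowest. This was a log2 fold change of −0.97 ± 0.12 (edgeR adjusted P = 2.00e-05), and −0.85 (edgeR adjusted P = 2.54e-05) without that library. In the NONO experiment, the level was 8.93, 9.26 and 8.59 TPM in the NC libraries and 8.87, 9.70 and 8.51 TPM after knockdown, so the groups overlapped on the TPM scale. Its log2 fold change there was 0.18 (95% confidence interval −0.01 to 0.38; edgeR adjusted P = 0.142). The difference between the knockdowns was −1.17 ± 0.15 on the log2 scale (edgeR interaction test, adjusted P = 4.94e-06). The antisense neighbour AC015712.2, which shares 1585 exon bases with ALDH1A3, had 17.85 to 45.01 counts in the NONO experiment and 30.54 to 54.15 in the PKM2 experiment, against 138.05 to 404.47 for ALDH1A3. The estimated count of ALDH1A3 was not whole in any of the 12 libraries, and the part of this neighbour in the result was not tested.

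The other aldehyde dehydrogenases were examined with ALDH1A3. Of 17 listed genes, 12 were tested, of which 7 fell and 3 rose after NONO knockdown (median log2 fold change −0.26) and 7 fell and 2 rose after PKM2 knockdown (median −0.35), with medians over all genes of −0.01. Over all genes, 17.2% fell and 16.2% rose after NONO knockdown, and 34.7% and 33.6% after PKM2 knockdown, and the counts of each list of related genes are to be read against these shares. ALDH5A1, the mitochondrial succinic semialdehyde dehydrogenase, fell from 3.71 ± 0.400 to 2.33 ± 0.0709 TPM after NONO knockdown (−0.56, edgeR adjusted P = 0.00150) and from 3.86 ± 0.649 to 1.15 ± 0.142 TPM after PKM2 knockdown (−1.77, edgeR adjusted P = 4.87e-07). ALDH4A1, which acts in proline breakdown, fell from 7.67 ± 1.10 to 2.29 ± 0.290 TPM after PKM2 knockdown (−1.80, edgeR adjusted P = 2.72e-07). ALDH3B1 went in opposite directions, with −0.48 after NONO knockdown (edgeR adjusted P = 0.0101) and 0.52 after PKM2 knockdown (edgeR adjusted P = 0.00101). ALDH16A1 and ALDH18A1, the latter an enzyme of proline synthesis, rose after NONO knockdown by 0.51 and 0.25, and ALDH9A1 rose after PKM2 knockdown by 0.19.

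In the retinoid pathway, to which ALDH1A3 belongs, 9 of 19 listed genes were tested, and 3 fell and 5 rose after NONO knockdown and 3 fell and 4 rose after PKM2 knockdown. CYP26B1, which breaks down retinoic acid, fell from 6.31 ± 0.787 to 4.89 ± 0.533 TPM (−0.51, edgeR adjusted P = 0.00460) after NONO knockdown and from 5.44 ± 0.536 to 1.89 ± 0.114 TPM (−1.23, edgeR adjusted P = 1.54e-06) after PKM2 knockdown. CRABP2, which carries retinoic acid to its nuclear receptors, also fell in both, with log2 fold changes of −0.60 and −1.06. DHRS3, which reduces retinal to retinol and so removes the substrate of ALDH1A3, rose by 1.29 after NONO knockdown and by 1.56 after PKM2 knockdown. Its NC levels were 1.06 ± 0.676 and 0.470 ± 0.101 TPM, and the NC libraries of the NONO experiment held only 10 to 51 counts. The receptor RXRA rose by 0.55 after NONO knockdown (edgeR adjusted P = 8.50e-06), and the receptor RARG rose from 25.8 ± 1.31 to 56.97 ± 2.71 TPM (1.26, edgeR adjusted P = 3.03e-09) after PKM2 knockdown.

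Of the SOX transcription factors, SOX9 fell slightly after PKM2 knockdown and SOX4 did not pass the test after either knockdown. SOX9, which acts in progenitors of many epithelia, had 15.39, 16.49 and 17.27 TPM in the NC libraries and 13.56, 12.31 and 12.33 TPM after PKM2 knockdown. The groups did not overlap, and the log2 fold change was −0.23 ± 0.06 (edgeR adjusted P = 0.00636). Its size depended on the scale, with −0.36 by limma on log2(TPM + 0.1) and −0.14 once the trend of fold change with gene length had been subtracted. In the NONO experiment, SOX9 had 15.94, 18.72 and 18.70 TPM in the NC libraries and 18.39, 18.98 and 18.67 TPM after knockdown, with the first NC library the lowest and the groups overlapping on this scale. A log2 fold change of 0.13 was found (edgeR adjusted P = 0.159), and 0.07 without that library. The 2 effects of opposite sign differed by −0.37 ± 0.09 (edgeR interaction test, adjusted P = 0.00218).

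SOX4, which is expressed in many carcinomas and acts in epithelial-to-mesenchymal transition, had 6.01, 8.83 and 8.03 TPM in the NC libraries and 9.72, 8.40 and 8.05 TPM after NONO knockdown. The first NC library was the lowest and the groups overlapped. Its log2 fold change of 0.25 ± 0.12 did not pass the test (edgeR adjusted P = 0.143), and its size rested on single libraries. It was 0.12 (edgeR adjusted P = 0.250) without the first NC library and 0.16 (edgeR adjusted P = 0.427) without the first knockdown library. It passed without the second NC library (0.38, edgeR adjusted P = 0.0354). Without the low-count filter it passed at nearly the same size (0.25, edgeR adjusted P = 0.0140). That fit also lowered the edgeR adjusted P of PROCR, from 2.11e-04 to 2.16e-07, so this pass is no separate support for a change of SOX4. In the PKM2 experiment, SOX4 had 5.80, 5.72 and 6.30 TPM in the NC libraries and 5.34, 5.22 and 4.80 TPM after knockdown. These TPM ranges were separate but the CPM ranges overlapped, and the log2 fold change was −0.09 (95% confidence interval −0.25 to 0.07; edgeR adjusted P = 0.303). The difference between the knockdowns was −0.35 ± 0.15 and missed the threshold (edgeR interaction test, adjusted P = 0.0612). Without the low-count filter this difference passed, again at nearly the same size (−0.37, edgeR adjusted P = 0.0185). It was −0.21 (edgeR adjusted P = 0.161) without the first NC library for NONO. Of 18 other SOX genes, 4 had enough counts to be tested in the NONO experiment, of which 1 fell and 0 rose, and 6 in the PKM2 experiment, of which 0 fell and 1 rose. SOX13, a factor of the SoxD group, rose from 18.7 ± 0.618 to 26.5 ± 0.697 TPM (0.61, edgeR adjusted P = 8.17e-07) after PKM2 knockdown. SOX6, also of the SoxD group and named after its values were seen, fell after NONO knockdown from 28 to 38 counts per NC library to 10 to 13 (−1.54, edgeR adjusted P = 0.00312).

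The KLF pair went in opposite directions after PKM2 knockdown. KLF4, a factor of pluripotency that also restrains the cell cycle in epithelia, had 13.83, 20.75 and 15.59 TPM in the NC libraries and 39.03, 34.21 and 31.97 TPM after knockdown. KLF5, which promotes proliferation of basal epithelial cells, had 8.99, 9.60 and 9.55 TPM in the NC libraries and 7.12, 5.68 and 4.63 TPM after knockdown. The groups of both genes were separate, and among the knockdown libraries the third had the lowest level of either gene. On the log2 scale, the fold change was 1.23 ± 0.11 (edgeR adjusted P = 1.12e-06), a 2.34-fold higher level, for KLF4 and −0.66 ± 0.08 (edgeR adjusted P = 2.19e-05), 63.2% of the NC level, for KLF5. Without the third knockdown library, the values were 1.27 and −0.59. The ratio of KLF4 to KLF5 rose from 1.78 ± 0.336 to 6.14 ± 0.718 on the TPM scale, with ranges of 1.54 to 2.16 and 5.48 to 6.91. With this rise, KLF4 passed PROCR to hold the second level of the set, with 35.1 ± 3.61 against 29.3 ± 1.02 TPM, whose ranges did not overlap.

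After NONO knockdown, neither KLF gene passed the test. KLF4 had 15.53, 23.17 and 20.81 TPM in the NC libraries and 18.21, 21.27 and 18.45 TPM in the knockdown libraries, which lay within the NC range. Its log2 fold change was 0.07 (95% confidence interval −0.18 to 0.32; edgeR adjusted P = 0.677), and −0.05 without the first NC library. KLF5 had 10.26, 9.05 and 9.93 TPM in the NC libraries and 8.18, 8.55 and 8.90 TPM after knockdown. The groups did not overlap, and the log2 fold change of −0.16 (95% confidence interval −0.34 to 0.02) did not pass the test (edgeR adjusted P = 0.158). Without the first NC library, it was −0.09. The difference between the knockdowns was 1.14 ± 0.17 for KLF4 (edgeR interaction test, adjusted P = 2.74e-05) and −0.51 ± 0.12 for KLF5 (adjusted P = 0.00147 by the same edgeR test).

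Most of the other KLF genes were expressed. Of 15 listed genes, 12 were tested in the NONO experiment, of which 1 fell and 5 rose, and 13 were tested in the PKM2 experiment, of which 6 fell and 6 rose. KLF11, a repressor induced by TGF-β, fell from 4.79 ± 0.685 to 0.730 ± 0.0100 TPM (−2.67, edgeR adjusted P = 4.44e-08) and KLF8 fell from 1.87 ± 0.596 to 0.343 ± 0.191 TPM (−2.03, edgeR adjusted P = 5.93e-06) after PKM2 knockdown. KLF15 went in opposite directions, from 16.4 ± 0.578 to 7.21 ± 0.382 TPM (−1.11, edgeR adjusted P = 3.63e-06) after NONO knockdown and from 14.0 ± 1.41 to 19.7 ± 0.987 TPM (0.66, edgeR adjusted P = 2.99e-06) after PKM2 knockdown. KLF2, a regulator of endothelial and lymphoid cells, rose by 0.79 after NONO knockdown (edgeR adjusted P = 4.51e-04). KLF13 rose in both, by 0.89 and 0.58.

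Among 30 other genes used as stem and progenitor markers, the 17 tested in the PKM2 experiment were lower in 10 cases and higher in 5, with a median log2 fold change of −0.70, where 34.7% of all genes fell and 33.6% rose. In the NONO experiment, 15 were tested, of which 5 fell and 3 rose, with a median of −0.05. The summed level of the list fell from between 1027 and 1057 TPM to between 521 and 609 TPM after PKM2 knockdown, and most of the sum was ITGB1, the integrin β1 chain (named after its values were seen), which went from 732 ± 12.4 to 297 ± 23.3 TPM. In the NONO experiment, the sum went the other way, from between 1202 and 1279 TPM to between 1445 and 1487 TPM, with ITGB1 at 842 ± 25.8 and 1065 ± 14.5 TPM. ENG (endoglin), a TGF-β co-receptor, fell from 10.8 ± 0.963 to 1.10 ± 0.383 TPM (−3.33, edgeR adjusted P = 1.97e-09), and BCL11A, a transcription factor of mammary progenitors, fell from 3.06 ± 1.49 to 0.567 ± 0.220 TPM (−1.75, edgeR adjusted P = 3.54e-06). LGR5, a receptor for R-spondins, had 27 to 42 counts in the NC libraries and 0 to 1 after PKM2 knockdown, so that it entered the test only through its NC group. SNAI2, which promotes the mesenchymal state, rose in both experiments, by 0.63 and 0.52, and TSPAN8, a tetraspanin, went from 0.247 ± 0.0252 to 1.07 ± 0.168 TPM after PKM2 knockdown, on 4 to 5 counts per NC library, so that it entered the test only through the knockdown group. LGR5 and TSPAN8 are both among the 17 genes behind the counts and the median in the PKM2 experiment. After NONO knockdown, ABCG2, the drug efflux pump of side population cells, fell from 3.01 ± 0.927 to 1.44 ± 0.312 TPM (−1.02, edgeR adjusted P = 7.72e-04), and PODXL rose by 0.78. LGR5 had 12 to 16 counts in the NC libraries of the NONO experiment and 2 to 6 counts after knockdown, so that it entered the test only through its NC group, whereas its TPM ran from 0.05 to 3.97 in the 3 knockdown libraries, so its level on that scale rests on 1 library.

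**Figure D4:**
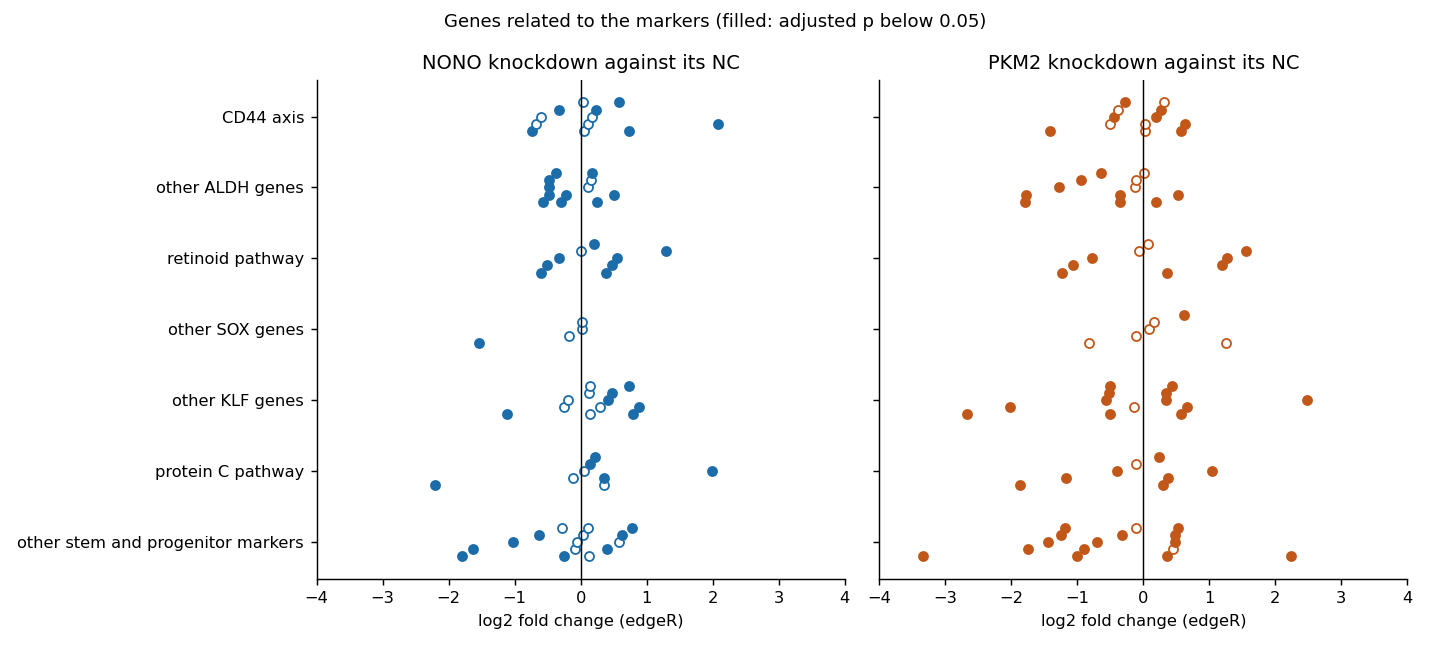
Log2 fold change (x axis) of the tested genes in 7 lists related to the markers (rows), after NONO knockdown (left) and PKM2 knockdown (right), with filled points for an adjusted P below 0.05 by edgeR and points spread vertically for legibility only. LGR5 after PKM2 knockdown is left out because its knockdown libraries had at most 1 count, and the other stem and progenitor markers lie mostly left of 0 after PKM2 knockdown (median −0.70 over all 17 tested, LGR5 included).

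Markers of other cell types and states were examined because several of the 10 genes are also expressed by leukocytes or endothelial cells. Of 7 leukocyte markers, CD3E had 0 counts in all 12 libraries, PTPRC had a mean of at most 0.0700 TPM in any group, and the summed level was almost entirely CD68, a lysosomal protein. That sum lay between 123.2 and 128.4 TPM in the NC libraries and between 149.5 and 153.6 TPM after NONO knockdown, and between 134.1 and 137.3 TPM and between 53.7 and 55.7 TPM in the PKM2 experiment. The 5 endothelial markers summed to at most 4.06 TPM in any library. Of 12 luminal epithelial markers, 9 were tested, of which 5 fell and 3 rose after PKM2 knockdown, with EPCAM lower (−0.70, edgeR adjusted P = 0.0162) and KRT18 higher (0.90, edgeR adjusted P = 5.01e-08). Of 8 mesenchymal markers, 6 were tested, of which 3 fell and 3 rose in the same libraries. Both sets of counts are to be read against 34.7% of all genes lower and 33.6% higher after PKM2 knockdown. The part of these markers in the results was not tested.

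For PROCR, CD24 and KLF4, the 3 markers with the largest mean size of change over both experiments, the genes with the most similar pattern were sought by Pearson's r of log2 CPM, centred within each experiment, over the 12 libraries. PROCR was most like ALDH2 (r = 0.996, n = 12) and ATP6V0E2 (r = 0.996), and CD24 was most like SQLE (r = 0.990) and PDZD2 (r = 0.988). KLF4 was most like DUSP5 (r = 0.991) and RBM39 (r = 0.986). ALDH2, the mitochondrial enzyme that clears acetaldehyde, had log2 fold changes of −0.38 after NONO knockdown and −0.94 after PKM2 knockdown, and DUSP5, a phosphatase of ERK, had values of 0.06 and 0.94. ATP6V0E2 had −0.62 and −1.28, and PDZD2 had −0.47 and −1.76. SQLE (−0.12 and −0.78) moved less than CD24, and RBM39 (−0.01 and 0.41) less than KLF4, since r compares the pattern and not the size. These values are descriptions over libraries that share their experiment and their knockdown, chosen as the highest among 12802 or more genes.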

How the data were processed

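RNA-seq of 12 libraries of MDA-MB-231 cells was analysed, with 3 NC and 3 knockdown libraries in each of 2 experiments, grouped by the sample labels. Sequencing was paired, with reads of 150 bases, from poly(A)-selected RNA. For each experiment the authors deposited 1 table, with an estimated count and a TPM value for every gene in every library. The submitters' processing notes name fastp, HISAT2, StringTie, RSEM, DESeq2, edgeR, limma and hg19, without versions or roles, and some gene identifiers in the tables belong to later annotations, so the build behind the counts is uncertain. The handling of strand is not given in the sources used here. The deposited tables also hold fold changes, their log2 values, P values and adjusted P values, and the authors' mean TPM per group, none of which was used. Both tables share 60558 identifiers, of which 97.4% have equal length.

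Estimated counts were rounded to whole numbers and tested in edgeR 4.0.16 under R 4.3.3 by the quasi-likelihood method, with TMM factors, filterByExpr at a minimum count of 10 and no replicate block, over the 6 libraries of each experiment. An interaction term over all 12 libraries tested whether both knockdown effects differed. P values were adjusted by Benjamini-Hochberg over all genes tested and called below 0.05, and the cutoffs of the study's methods (fold change above 2, P below 0.05) were applied as well. CPM values are TMM-normalized. Standard errors were derived from the F statistic, and 95% confidence intervals from the same fit. Depth was 19861762 to 28455268 counts per library, which limits the precision for CD24 (9 to 62.35 counts). The chi-square between replicates, divided by its degrees of freedom, was 2.38 to 13.4, so no library was counted as a copy of another. With 3 libraries per group, an exact permutation test of a single gene cannot go below 0.1 and was not used.

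The members and the lists of related genes were chosen with earlier results of these data known. Named genes were the members, NONO and PKM, up to 2 genes with the largest fall and up to 2 with the largest rise per related list and experiment (adjusted P below 0.05, mean TPM of at least 1 in a group), and the 2 genes most correlated with each of 3 members. The results were recomputed with a replicate block, without the filter on counts, with relative log expression factors, with DESeq2 1.42.0, with limma 3.58.1 on log2(TPM + 1) or log2(TPM + 0.1) with and without a minimum mean TPM of 1, with a length trend in 20 bins removed, and leaving out each library once. A combined length and GC trend was added after seeing the data. The procedures were tested on simulated data.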

Additional observations from a re-analysis of the deposited data

Results flagged for a closer look

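The effects of the 2 knockdowns differed for 6 of the 8 tested markers by edgeR's interaction test over all 12 libraries, in which every knockdown effect was taken against the NC of that experiment. ALDH1A3 had a difference of −1.17 on the log2 scale (PKM2 minus NONO, adjusted P = 4.94e-06). For KLF5 it was −0.51 (adjusted P = 0.00147) and for PROCR −0.50 (adjusted P = 1.10e-04). CD24 had a difference of −1.75 (adjusted P = 9.30e-04), but its PKM2 knockdown libraries held only 9 to 10.25 counts each. In the PKM2 experiment, CD24 passed the filter on low counts only through its NC group. SOX9 had a difference of −0.37 (adjusted P = 0.00218), and its fold changes had opposite signs in the 2 experiments. KLF4 was the marker with a positive difference, 1.14 (adjusted P = 2.74e-05). These values are compared with 27.4% of all genes lower and 25.7% higher in the same test.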

How the results depend on the processing

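After NONO knockdown, 1 marker was called (PROCR), and 2 were called (PROCR and SOX4) without the low-count filter. The fold change of SOX4 was nearly the same with and without the filter (0.25 on the log2 scale). Leaving out each library in turn gave 1 to 2, the latter without the second NC library, and 0 to 0 past the fold cutoff. After PKM2 knockdown, the 2 markers past the fold cutoff became 1 (KLF4) with limma on log2(TPM + 1), with or without the TPM filter. With limma on log2(TPM + 0.1), the 2 were KLF4 and PROCR (log2 fold change −1.01). ALDH1A3 joined CD24 and KLF4 when the third NC library or the second knockdown library was left out. Leaving out each library gave 6 to 6 called and 2 to 3 past the fold cutoff, and 6 to 7 for the difference between the knockdowns, where SOX4 was added without the second NC or the third knockdown library for NONO and also without the low-count filter (7). Of the other stem and progenitor markers, DESeq2 called 3 lower after NONO knockdown, against 5 by edgeR. Over all genes, limma on log2(TPM + 1) called 1734 lower and 911 higher after NONO knockdown (1115 and 584 without the TPM filter), against 2558 and 2396 by edgeR, and without the TPM filter 4987 and 3325 after PKM2 knockdown, against 5393 and 5221. Limma did not test CD24 after PKM2 knockdown where the mean TPM had to reach 1.

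Signs turned only for values that did not pass the test, those of CD44 and of KLF4 after NONO knockdown. CD44 after NONO knockdown ran from −0.056 to 0.033 over the libraries left out, the latter without the first NC library. KLF4 after NONO knockdown ran from −0.047 (without that library) to 0.219 over the libraries left out, and was −0.022 with limma on log2(TPM + 1) with and without the TPM filter and −0.0224 on log2(TPM + 0.1). CD44 after PKM2 knockdown was 0.0076 with DESeq2 and with relative log expression factors, 0.0012 without the low-count filter, and −0.021 to 0.0153 over the libraries left out. For CD44, the difference between the knockdowns was −0.0065 without the filter and −0.032 to 0.063 over the libraries left out. With the length trend subtracted, CD44 and SOX9 after PKM2 knockdown were 0.07 and −0.14, and with the GC trend as well, CD44 and PROCR were 0.07 and −0.82, and CD44 after NONO knockdown was 0.0036. The cause was not tested.

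The replicate numbers of the labels did not pair the libraries, since same-numbered NC and knockdown libraries deviated from their group means with correlations of −0.07 to 0.04. With a replicate block, 1 marker was called after NONO knockdown, 6 after PKM2 knockdown and 6 in the difference, the same genes as without it, and 0 and 2 passed the fold cutoff.

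Depth limited CD24, ALDH1A1 and PROM1 most. P values describe these libraries only, RNA was measured in whole cultures, and neither protein nor the share of cells with a marker was measured.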
